A study of Mus musculus with 16 samples.

Results

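The oxidative phosphorylation subunits described here are 83 genes of 34547 genes or unnamed transcripts on the array. They are the genes whose symbol begins with Nduf, Uqcr or Atp5, or is one of the Cox4 to Cox8 or Sdha to Sdhd genes, with Cox6a2 left out. Of the 83 genes, 33 were complex I subunits, 5 complex I assembly factors (Ndufaf genes), 4 complex II subunits, 8 complex III, 16 complex IV and 17 complex V. They were found through 106 probes, and the brightest probe stood for each gene. The gene column of the scanner files holds accessions, and 0 of its cells matched the name pattern as written, so symbols were assigned to 24167 of 41174 probes through RefSeq's gene table and the probe descriptions. In all, 80 of the 83 genes passed the brightness filter, and Cox4i2, Cox7b2 and Cox8b did not. The symbols place Ndufa4 in complex I, although its protein is now assigned to complex IV.

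The study sorted B-cell progenitors from wild-type BALB/c mice into 4 groups, with 4 arrays per group. Bone marrow Fr.A and Fr.B/C were sorted from pools of 16 female adult mice, flushed from femur and tibia. Fetal liver Fr.A and Fr.B/C were sorted from single litters at gestation day 16, with 8 embryos on average. The labels do not give the sex of the embryos. Each sort gave both fractions, and there were 4 sorts per tissue. In the Hardy scheme Fr.A is the pre-pro-B stage and Fr.B/C the pro-B stage. Amplified RNA (from 100 ng of total RNA) was hybridised beside a shared reference, a mix of RNA from 6 cell lines. Every value below is the log2 of sample over this reference, so it compares groups for 1 gene and does not rank genes by level. The series title names Lin28b and the transcription factor Arid3a as promoters of B lymphopoiesis in the fetus, and the design sets fetal beside adult cells at either stage. Age, organ, scan session and any difference in sex cannot be told apart in any comparison of the tissues. Pools of mice and litters also average over animals, so the spread between arrays is not one between animals. It holds differences between sorts together with those of amplification, labelling and array. As described below, 4 arrays of a group may also carry fewer than 4 independent values.

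Oxidative phosphorylation is the set of reactions by which mitochondria make ATP. Complex I takes electrons from NADH and complex II takes them from succinate in the citric acid cycle. Complex III passes them to cytochrome c, and complex IV hands them to oxygen. Complexes I, III and IV pump protons across the inner membrane, and complex V, the ATP synthase, lets the protons flow back to drive ATP synthesis. The genes measured here are all nuclear, while a few core subunits of complexes I, III, IV and V come from the mitochondrial genome and are not analysed here. Cycling cells such as pro-B cells are known to use this pathway beside glycolysis.

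The labels were checked against marker genes. The mean log2 ratio of 13 B-lineage genes was 0.64 to 0.91 in bone marrow Fr.A and 1.49 to 1.80 in bone marrow Fr.B/C, against -0.15 to 0.02 and 0.35 to 0.49 in fetal liver. These 13 include Dntt (terminal transferase), which is known to be low in fetal B lineage cells. Without Dntt, the mean of the other 12 was 0.52 to 0.67 and 1.42 to 1.63 in bone marrow, against 0.32 to 0.41 and 0.89 to 1.09 in fetal liver. Dntt was saturated on all 4 bone marrow arrays of either fraction and was there at least 294-fold (Fr.A) and at least 354-fold (Fr.B/C) brighter than in fetal liver (adjusted p = 4.24e-09 and 1.02e-09, limma). Such bounds set the saturated signal against the other group's mean of the sample channel, after loess and quantile scaling, and are open to dye bias. Pax5 did not pass the filter. Myeloid genes were present in all groups (mean log2 ratio of 13 genes 1.76 to 4.82), and between 52.9% and 68.3% of the probes of an array were well above background. Arrays 1 and 2 of a group resembled each other, and so did arrays 3 and 4, more than arrays across these sets did (r = 0.925 to 0.981 within sets, 0.907 to 0.942 across). The sets also differed in scan session, with sessions 1 and 2 against 3 and 4 in bone marrow and 5 against 6 in fetal liver. Array set and scan session therefore cannot be told apart. The labels call the arrays separate sorts, but 4 arrays of a group may carry fewer than 4 independent values. Counts are therefore also given with each set averaged to 1 value, which leaves 2 values per group.

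The promoters show which members carry the best known element of this pathway. Nuclear respiratory factor 1 (NRF1) is known to bind the palindrome GCGCATGCGC in promoters of respiratory chain genes. RefSeq promoter windows (GRCm38.p6, 250 bases before to 50 after the start) were available for 70 members. The palindrome was in 6 of them (8.6%), namely Atp5g2, Atp5k, Cox6a1, Ndufaf4, Ndufaf5 and Uqcrc1, against 1.07% of 27025 genes. Its shorter form, GCGCATG, which the palindrome contains, was in 13 members (18.6%) and in 4.41% of genes. CCGGAAG, a site for ETS factors such as GABP that was added after the values were seen, was in 17 members (24.3%) and in 9.93% of genes. All were searched on both strands, and a match is only a match of letters. The windows below belong to 3 palindrome genes and to the members with the highest and the lowest difference between tissues, Cox7a1 and Cox7a2l, which hold none of these letters. Capitals mark the motif matches, and each window is printed on the strand of its gene. They lie at chr5:108434350-108434649 (minus strand, Atp5k), chr2:140170396-140170695 (plus, Ndufaf5), chr9:108936398-108936697 (plus, Uqcrc1), chr7:30183921-30184220 (plus, Cox7a1) and chr17:83514284-83514583 (minus, Cox7a2l).
Atp5k: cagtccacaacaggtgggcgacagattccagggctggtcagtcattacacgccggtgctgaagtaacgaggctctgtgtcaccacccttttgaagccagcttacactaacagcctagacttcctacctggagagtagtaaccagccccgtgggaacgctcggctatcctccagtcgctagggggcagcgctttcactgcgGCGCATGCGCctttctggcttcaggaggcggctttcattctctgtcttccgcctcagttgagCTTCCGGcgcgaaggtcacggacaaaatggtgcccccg
Ndufaf5: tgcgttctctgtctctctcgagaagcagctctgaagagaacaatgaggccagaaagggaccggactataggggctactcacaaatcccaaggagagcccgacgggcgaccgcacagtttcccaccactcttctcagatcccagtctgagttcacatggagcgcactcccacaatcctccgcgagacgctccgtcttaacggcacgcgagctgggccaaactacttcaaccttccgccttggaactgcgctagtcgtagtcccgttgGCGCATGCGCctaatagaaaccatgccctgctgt
Uqcrc1: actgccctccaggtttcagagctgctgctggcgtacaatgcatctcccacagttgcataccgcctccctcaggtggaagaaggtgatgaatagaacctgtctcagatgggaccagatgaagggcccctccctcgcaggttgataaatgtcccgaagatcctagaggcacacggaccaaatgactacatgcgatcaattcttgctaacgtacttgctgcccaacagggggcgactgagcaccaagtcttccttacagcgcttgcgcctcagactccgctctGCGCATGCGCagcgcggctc
Cox7a1: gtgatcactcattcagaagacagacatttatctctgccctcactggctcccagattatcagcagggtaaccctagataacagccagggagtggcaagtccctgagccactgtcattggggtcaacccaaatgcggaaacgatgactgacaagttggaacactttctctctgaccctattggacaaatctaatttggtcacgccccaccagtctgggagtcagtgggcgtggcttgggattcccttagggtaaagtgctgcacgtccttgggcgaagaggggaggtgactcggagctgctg
Cox7a2l: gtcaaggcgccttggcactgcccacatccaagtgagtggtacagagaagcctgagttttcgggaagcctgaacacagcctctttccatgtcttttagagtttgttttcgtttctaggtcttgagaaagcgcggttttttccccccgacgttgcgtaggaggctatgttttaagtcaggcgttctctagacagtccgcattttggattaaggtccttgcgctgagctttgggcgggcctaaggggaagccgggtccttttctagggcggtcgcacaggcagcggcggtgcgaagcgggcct
The palindrome genes did not move alike. Between the tissues, Atp5k was higher in fetal liver by 0.95 in Fr.A and by 0.93 at the Fr.B/C stage and Ndufaf5 by 0.55 and 0.59, all 4 past the test, whereas Uqcrc1 differed by 0.19 and 0.03 and did not pass in either fraction.

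The median member was lowest in bone marrow Fr.A and highest in fetal liver Fr.B/C. This median log2 ratio on the 4 arrays was -0.39, -0.48, -0.12 and -0.11 in bone marrow Fr.A and -0.09, -0.16, 0.05 and 0.05 in bone marrow Fr.B/C. In fetal liver it was -0.14, 0.12, 0.14 and 0.19 in Fr.A and 0.15, 0.20, 0.30 and 0.35 in Fr.B/C. The lowest fetal liver Fr.A array, -0.14, overlapped bone marrow Fr.A, while the fetal liver Fr.B/C arrays lay above all bone marrow arrays. Over all genes tested the median of an array stayed between -0.03 and 0.07, since loess within arrays centres it by design. Within a group, the median SD of a single member was 0.20 to 0.28, and the first pair of arrays lay below the second in each group. Members are bright: the median member was brighter than 97.7% of the genes tested, and 18 were saturated in the sample channel on at least 1 array, 4 of them (Atp5g3, Cox8a, Cox4i1 and Atp5b) on at least 8. Saturation flattens differences in these members.

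**Figure D1:**
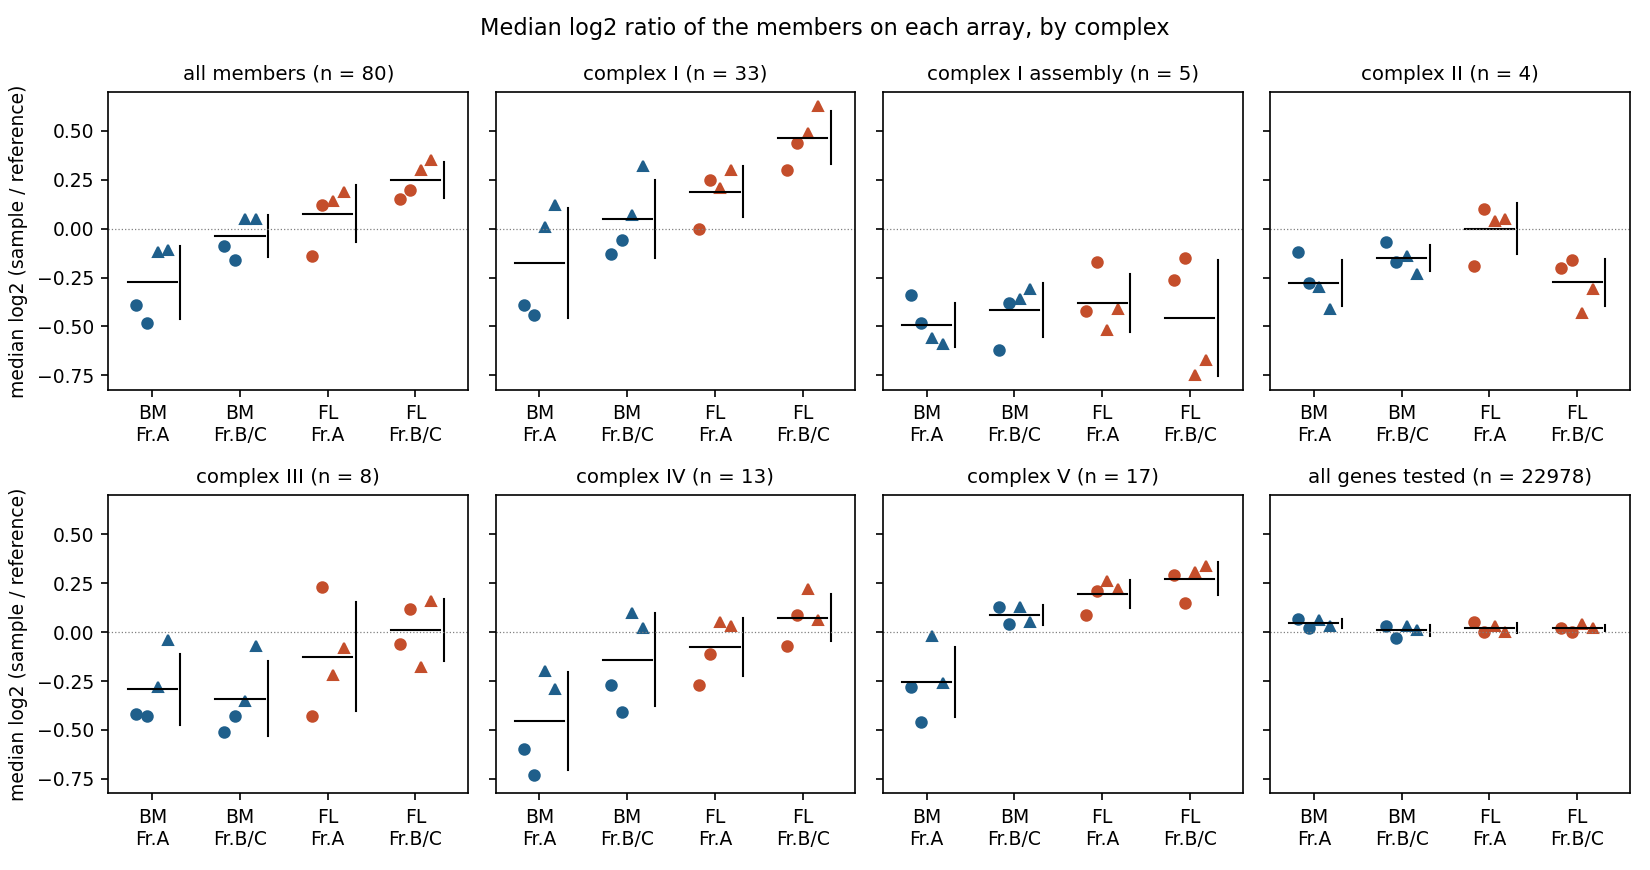
Median log2 ratio of sample over reference (vertical axis) on each of the 16 arrays, for all members, each complex and all genes tested, by group (horizontal axis: BM, bone marrow; FL, fetal liver). Circles are arrays 1 and 2, triangles arrays 3 and 4, horizontal lines the group means and vertical bars 1 SD. The members' medians run from -0.48 in bone marrow Fr.A to 0.35 in fetal liver Fr.B/C. Those of all genes, which loess within arrays centres by design, lie between -0.03 and 0.07.

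Where subunits differed between the tissues, they were nearly all higher in fetal liver, at both stages. In Fr.A, 31 of 80 members passed at an adjusted p under 0.05 (limma, adjusted over 22978 genes) as higher and 0 as lower, where 12.2% of all genes were higher and 17.2% lower. At an unadjusted p under 0.05, 39 were higher and 0 lower, and the deposited ratios gave 22 higher and 0 lower (12.5% of all genes were higher there). The median difference of the members was 0.35 on the log2 scale, against -0.02 over all genes, and 71 of 80 had a positive sign. In Fr.B/C, 30 were higher and 2 lower, where 13.8% of all genes were higher and 14.7% lower, with a median of 0.37 against 0.01. The arrays of the tissues did not overlap for 18 higher members in Fr.A (10.7% of all genes, and 15.4% lower) and for 29 higher and 2 lower members in Fr.B/C (14.2% and 15.2%). Of the members called higher, 22 were so in both fractions, 9 in Fr.A only and 8 in Fr.B/C only, by this threshold. The share of all genes higher in both fractions, and that at an unadjusted p, are not given here. Among the 1288 genes at least as bright as the upper 60 members, the others had medians of 0.00 and 0.02 and were higher in 19.5% and 19.7% of cases, while of those 60 members 23 and 26 were higher. Loess within arrays holds medians over all genes, and over genes of like brightness, near 0 by design in every comparison.

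With the array sets averaged, 5 members passed in Fr.A (Atp5mpl, Cox7a1, Cox6b2, Cox7b and Ndufc1, all higher; 3.53% of all genes were higher and 7.44% lower) and 6 in Fr.B/C (Cox7a1, Cox6b2, Cox6c, Cox7b and Ndufc1 higher, Cox7a2l lower; 3.77% and 4.89% of all genes). The Fr.A count of 31 was 20 without bone marrow Fr.A replicate 1, 16 without its replicate 2, and 17 without fetal liver Fr.A replicate 3 or 4. The Fr.B/C count of 32 was 21 without bone marrow Fr.B/C replicate 1, 19 without its replicate 2 and 21 without fetal liver Fr.B/C replicate 4. For the marker lists below, 12.2% of all genes were higher and 17.2% lower in fetal liver Fr.A, and 13.8% and 14.7% in Fr.B/C. Erythroid markers moved with the tissue: 12 of 17 that passed the filter were higher in fetal liver Fr.A and 11 in Fr.B/C. Their summed sample intensity was 7990 to 10300 and 8780 to 11900 in bone marrow Fr.A and Fr.B/C, against 28200 to 101000 and 39900 to 86500 in fetal liver. Within fetal liver their mean log2 ratio was 1.00 to 1.19 on arrays 1 and 2 and 1.99 to 2.32 on arrays 3 and 4. The members' median difference was 0.44 and 0.34 on arrays 1 and 2 alone and 0.28 and 0.29 on arrays 3 and 4 alone, and the part of erythroid RNA in it was not tested. Of the hepatocyte markers, Alb, Apoa1, Apoa2 and Ttr did not pass the filter. Of the 5 that passed it, Trf (-1.54) and Ahsg (-0.61) were lower in fetal liver Fr.A, while in Fr.B/C Ahsg (0.62) and Fgb (0.24) were higher and Trf (-1.01) was lower; Afp was well above background on all arrays and did not pass the test (-0.31 and 0.36). Their summed sample intensity was 1350 to 1880 and 607 to 677 in bone marrow, against 854 to 890 and 513 to 578 in fetal liver. Of 13 myeloid genes 7 passed as lower in fetal liver at the Fr.A stage (2 as higher) and 6 at the Fr.B/C stage, with medians of -1.33 and -1.37. Their summed sample intensity was 148000 to 261000 in bone marrow Fr.A and 68800 to 104000 in bone marrow Fr.B/C, against 54500 to 75000 and 9630 to 21200 in fetal liver. Of 7 natural killer cell genes 5 passed as lower at the Fr.A stage and 2 at the other, with a summed sample intensity of 7970 to 11800 and 1680 to 2280 in bone marrow, against 1860 to 2120 and 729 to 750. Of 8 T-lineage genes 3 were lower in either fraction and 1 was higher in Fr.B/C, with a summed sample intensity of 6700 to 7630 and 3540 to 4050 in bone marrow, against 2770 to 3490 and 2000 to 2180. Proliferation genes also moved with the tissue, with 11 of 13 higher in fetal liver Fr.A and 8 in Fr.B/C; their mean log2 ratio was -0.95 to -0.69, -0.10 to 0.01, -0.08 to 0.07 and 0.27 to 0.51 in the order of groups given above. Their summed sample intensity was 56100 to 64300, 98400 to 125000, 110000 to 120000 and 147000 to 167000. The levels of bone marrow Fr.B/C and fetal liver Fr.A overlapped. The part of these cell types and of proliferation in the members' difference was not tested, and in bulk samples fewer cells of a type and less RNA per cell cannot be told apart.

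**Figure D2:**
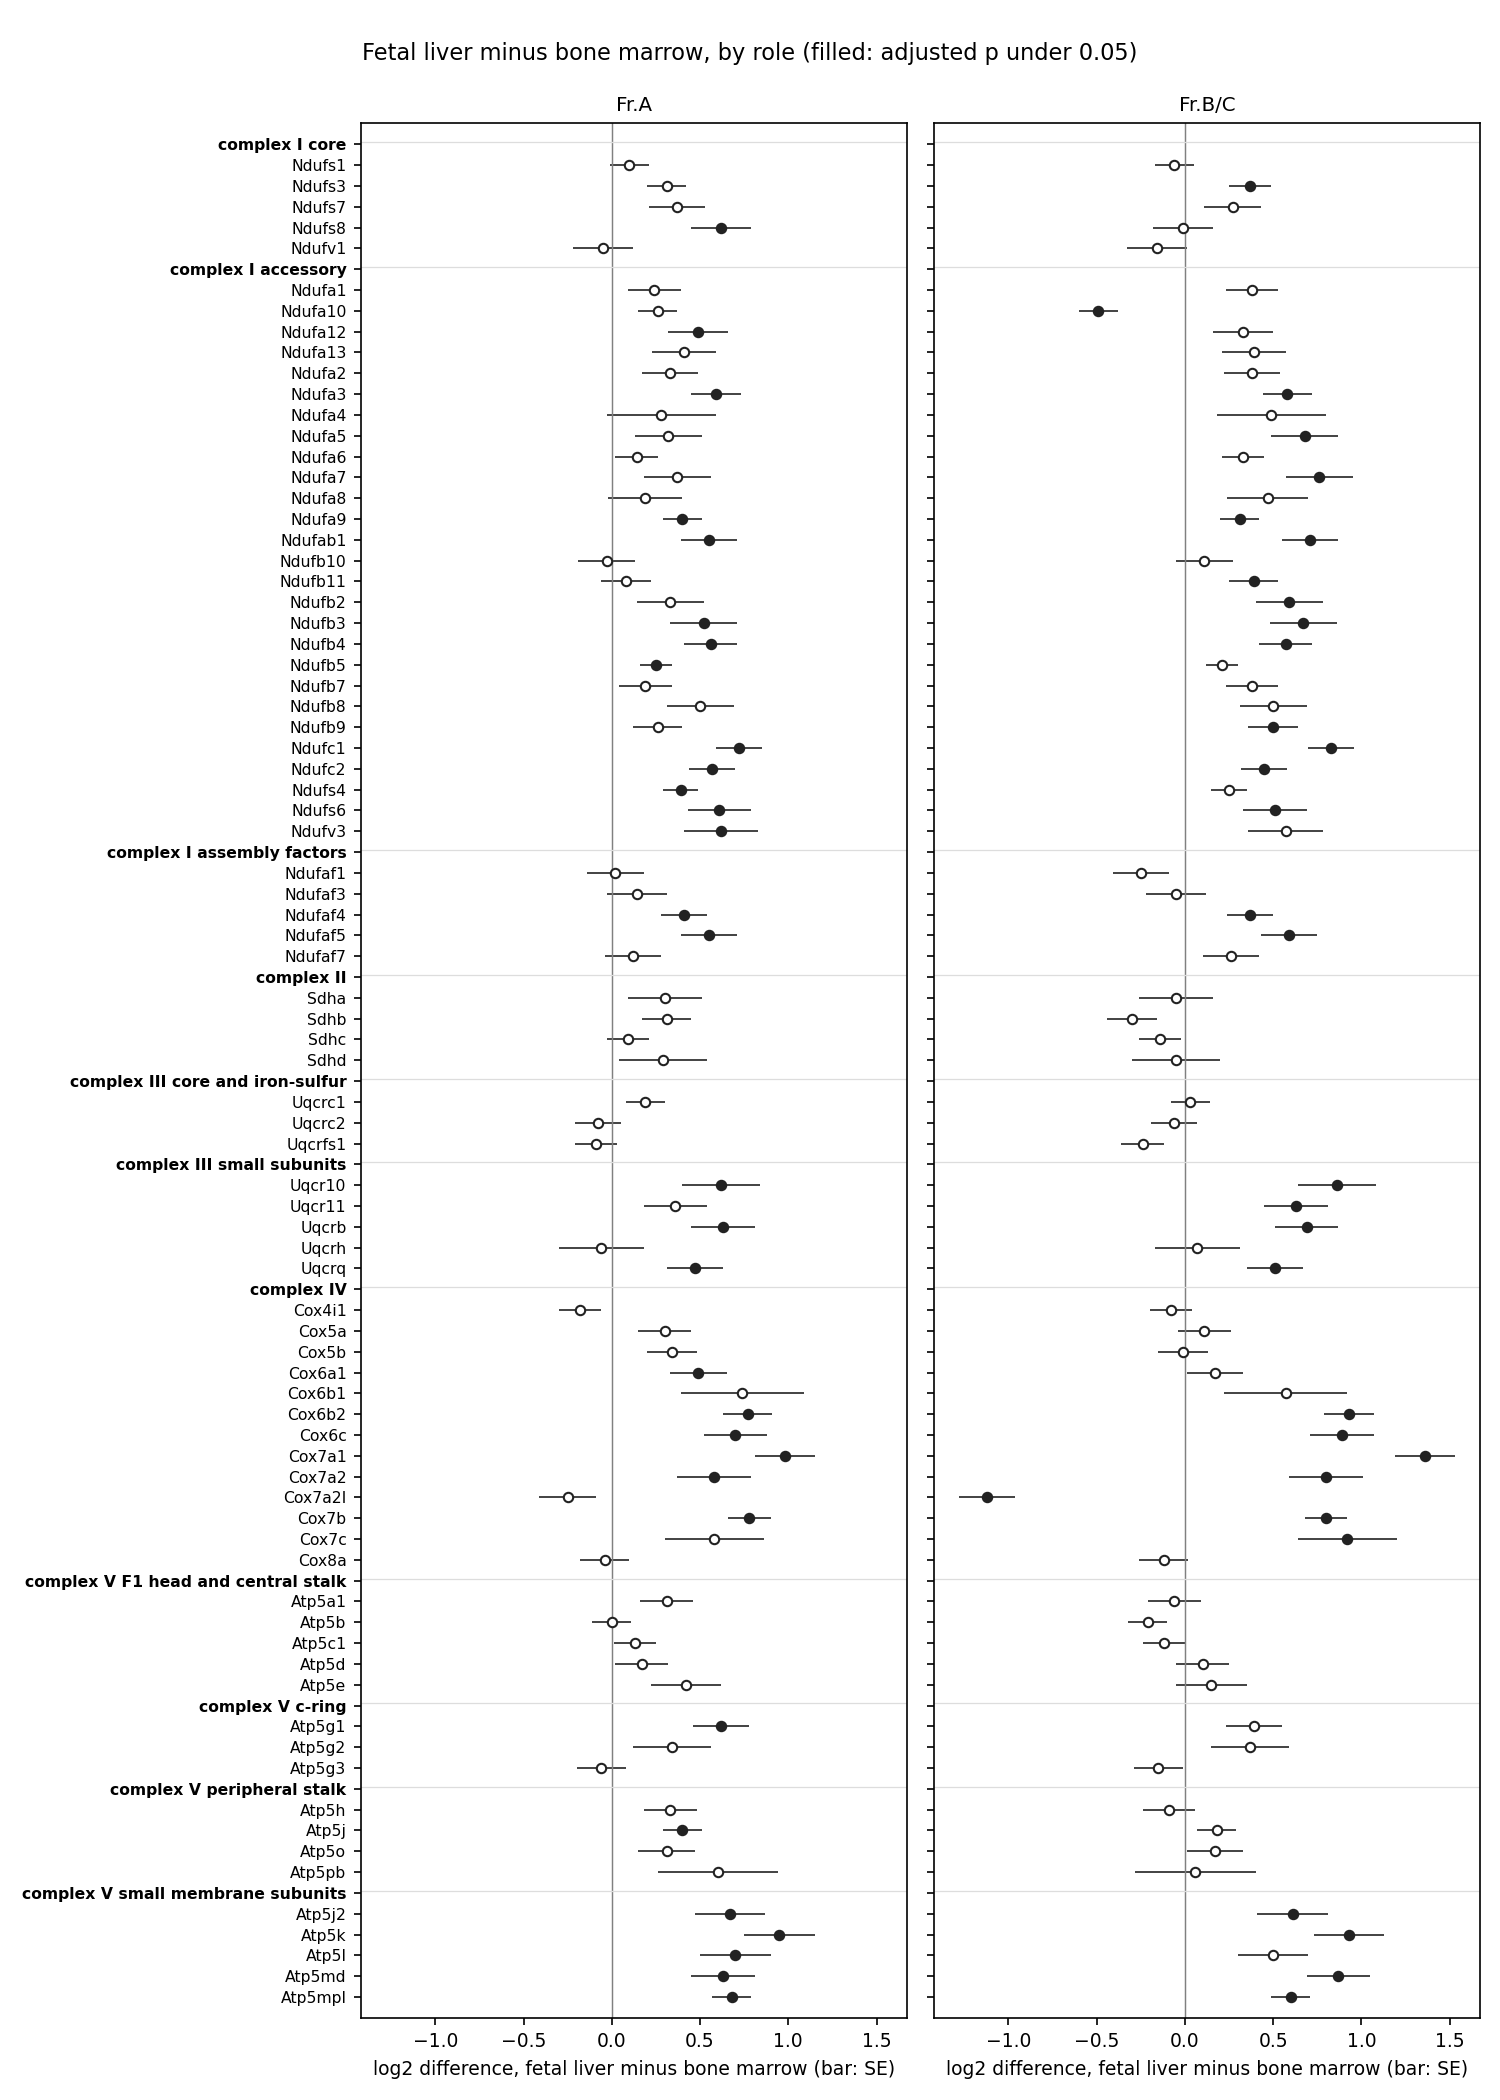
Difference between fetal liver and bone marrow (log2, horizontal axis; bars are standard errors) of 79 of the 80 members that passed the filter, by role (vertical axis), in Fr.A on the left and Fr.B/C on the right. Filled points passed at an adjusted p under 0.05. All 5 small membrane subunits of complex V are filled in Fr.A, and the lowest filled point is Cox7a2l at -1.12 in Fr.B/C.

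In complex I, most calls were of accessory subunits, which surround the catalytic core and are 27 of its 33 subunits here. Of 27 accessory subunits 12 were higher in fetal liver Fr.A and 13 in Fr.B/C, with medians of 0.37 and 0.47, and Ndufa10 was lower in Fr.B/C. Of the 6 core subunits that hold the NADH site and the iron-sulfur clusters, 1 was higher in Fr.A (Ndufs8) and 1 in Fr.B/C (Ndufs3), with medians of 0.34 and -0.04. At an unadjusted p under 0.05 (limma), 15 accessory and 3 core subunits were higher in Fr.A, so the shares were close there. In Fr.B/C 22 accessory subunits and 1 core subunit were higher, of 23 and 2 under that threshold. These roles were assigned after the values were seen, so this is a description only, as are members named here outside the naming rule.

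Ndufc1, a small accessory subunit, had log2 ratios of -0.74, -0.67, -0.51 and -0.35 in bone marrow Fr.A and 0.21, -0.14, 0.24 and 0.28 in fetal liver Fr.A. In Fr.B/C it had -0.50, -0.41, -0.22 and -0.12 in bone marrow and 0.32, 0.44, 0.70 and 0.62 in fetal liver. The tissues did not overlap in either fraction. The differences were 0.72 ± 0.13 (SE, n = 4 and 4 arrays, adjusted p = 0.000485 by limma) and 0.83 ± 0.13 (adjusted p = 0.000147). Ndufab1, the mitochondrial acyl carrier protein, was higher by 0.55 and 0.71 and Ndufa3, another small accessory subunit, by 0.59 and 0.58. Ndufa7, which is accessory too, passed in Fr.B/C alone (0.76 ± 0.19, adjusted p = 0.00615; 0.37 in Fr.A), as did Ndufa5 (0.68, against 0.32 in Fr.A), Ndufb2 (0.59, against 0.33) and Ndufb11 (0.39, against 0.08).

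The core iron-sulfur subunit Ndufs8 had -0.40, -0.10, 0.32 and 0.66 in bone marrow Fr.A, and 0.61, 0.89, 0.66 and 0.82 in fetal liver Fr.A. The highest bone marrow array overlapped the lower fetal liver arrays, and the difference was 0.62 ± 0.17 (adjusted p = 0.0117, limma).

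Among the complex I assembly factors, which help to build the complex and are not part of it, Ndufaf4 (0.41 and 0.37) and Ndufaf5 (0.55 and 0.59) were higher in fetal liver in both fractions. The deposited ratios did not give the Ndufaf4 call in either fraction. Its other probes differed by 0.15 and 0.26 in Fr.A and by 0.36 and 0.04 in Fr.B/C. Ndufaf1 (0.02 and -0.25), Ndufaf3 (0.14 and -0.05) and Ndufaf7 (0.12 and 0.26) did not pass.

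Complex II, through which no protons pass, gave no call between the tissues. By limma, 0 of its 4 subunits passed in either fraction, 1 in each had an unadjusted p under 0.05, and the deposited ratios also gave 0. Sdha, the flavoprotein that oxidises succinate, had log2 ratios of 0.35, 0.33, -0.43 and -0.49 in bone marrow Fr.A and 0.02, 0.58, 0.12 and 0.25 in fetal liver Fr.A, so the groups overlapped (0.30 ± 0.21). In Fr.B/C it had -0.03, 0.02, -0.20 and -0.20 in bone marrow and 0.05, 0.26, -0.53 and -0.39 in fetal liver (-0.05 ± 0.21). Its other probe had differences of 0.22 and -0.64. The iron-sulfur subunit Sdhb differed by 0.31 and -0.30, and the membrane anchors Sdhc and Sdhd by 0.09 and -0.14 and by 0.29 and -0.05. All 4 signs were positive in Fr.A and negative in Fr.B/C.

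In complex III all calls between the tissues were of small subunits. Of 5 small subunits 3 were higher in fetal liver Fr.A and 4 in Fr.B/C, with medians of 0.47 and 0.63. Of the 3 large parts, the core proteins Uqcrc1 and Uqcrc2 and the Rieske iron-sulfur protein Uqcrfs1, 0 passed in either fraction (medians -0.08 and -0.06, and 0 at an unadjusted p under 0.05 by limma). Uqcr10 had -0.79, -1.1, -0.22 and -0.04 in bone marrow Fr.A and -0.49, 0.50, 0.05 and 0.26 in fetal liver Fr.A, where the groups overlapped (0.62 ± 0.22, adjusted p = 0.047). In Fr.B/C it had -0.89, -0.90, -0.69 and -0.39 in bone marrow and 0.02, 0.47, -0.27 and 0.37 in fetal liver, with no overlap (0.86 ± 0.22, adjusted p = 0.00862). Uqcrb was higher by 0.63 and 0.69 and Uqcrq by 0.47 and 0.51. Uqcr11 passed in Fr.B/C (0.63; 0.36 in Fr.A), and the hinge protein Uqcrh did not pass (-0.06 and 0.07).

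Complex IV held the highest and the lowest difference of all members in both fractions. Of the 13 subunits that passed the filter, 6 were higher in fetal liver Fr.A; in Fr.B/C 6 were higher and 1 was lower, and the medians were 0.58 and 0.57. Cox7a1, known as the heart and muscle isoform of subunit VIIa, had log2 ratios of -1.33, -1.59, -0.86 and -0.81 in bone marrow Fr.A and -0.55, -0.01, -0.07 and -0.03 in fetal liver Fr.A. In Fr.B/C it had -0.47, -0.50, -0.32 and -0.40 in bone marrow and 0.73, 0.83, 0.99 and 1.21 in fetal liver. The tissues did not overlap, and Cox7a1 was higher in fetal liver by 0.98 ± 0.17 in Fr.A (1.98-fold, adjusted p = 0.000368, limma) and by 1.36 ± 0.17 in Fr.B/C (2.57-fold, adjusted p = 2.02e-05).

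Cox6b2, known as the testis isoform of subunit VIb, was at 1.41, 1.43, 1.98 and 1.5 in bone marrow Fr.A and at 2.48, 2.27, 2.08 and 2.59 in fetal liver Fr.A. In Fr.B/C it was at 1.82, 1.71, 2.02 and 1.91 in bone marrow and at 2.86, 2.53, 2.90 and 2.88 in fetal liver. Again the tissues did not overlap, with differences of 0.77 ± 0.14 (adjusted p = 0.000541) and 0.93 ± 0.14 (adjusted p = 0.000127). Its common isoform Cox6b1 had positive differences too (0.74 ± 0.35 and 0.57 ± 0.35) but was split by array set, at -0.98 and -0.87 against -0.02 and 0.15 in bone marrow Fr.A, and did not pass.

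Cox7b, a small structural subunit, had -1.05, -1.02, -0.77 and -0.44 in bone marrow Fr.A and -0.29, -0.11, 0.05 and 0.19 in fetal liver Fr.A. In Fr.B/C it had -1.11, -1.04, -1.16 and -0.73 in bone marrow and -0.33, -0.11, -0.30 and -0.13 in fetal liver. It was higher by 0.78 ± 0.12 (adjusted p = 0.000216) and 0.80 ± 0.12 (adjusted p = 0.0002), with no overlap. Cox6c, another small subunit, was higher by 0.70 ± 0.18 and 0.89 ± 0.18. Cox7a2, the widely expressed isoform of subunit VIIa, was higher by 0.58 ± 0.21 and 0.80 ± 0.21; in Fr.A (adjusted p = 0.0436) that call was lost when any 1 of 12 arrays was left out (all but bone marrow Fr.A replicates 3 and 4, fetal liver Fr.A replicate 1 and fetal liver Fr.B/C replicate 3), and the difference was then 0.39 to 0.64, lowest without bone marrow Fr.A replicate 2. Cox7c passed in Fr.B/C (0.92 ± 0.28, adjusted p = 0.0215), a call that was lost without bone marrow Fr.B/C replicate 1 (0.80) or 2 (0.84) or fetal liver Fr.B/C replicate 3 (0.75) or 4 (0.89).

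**Figure D3:**
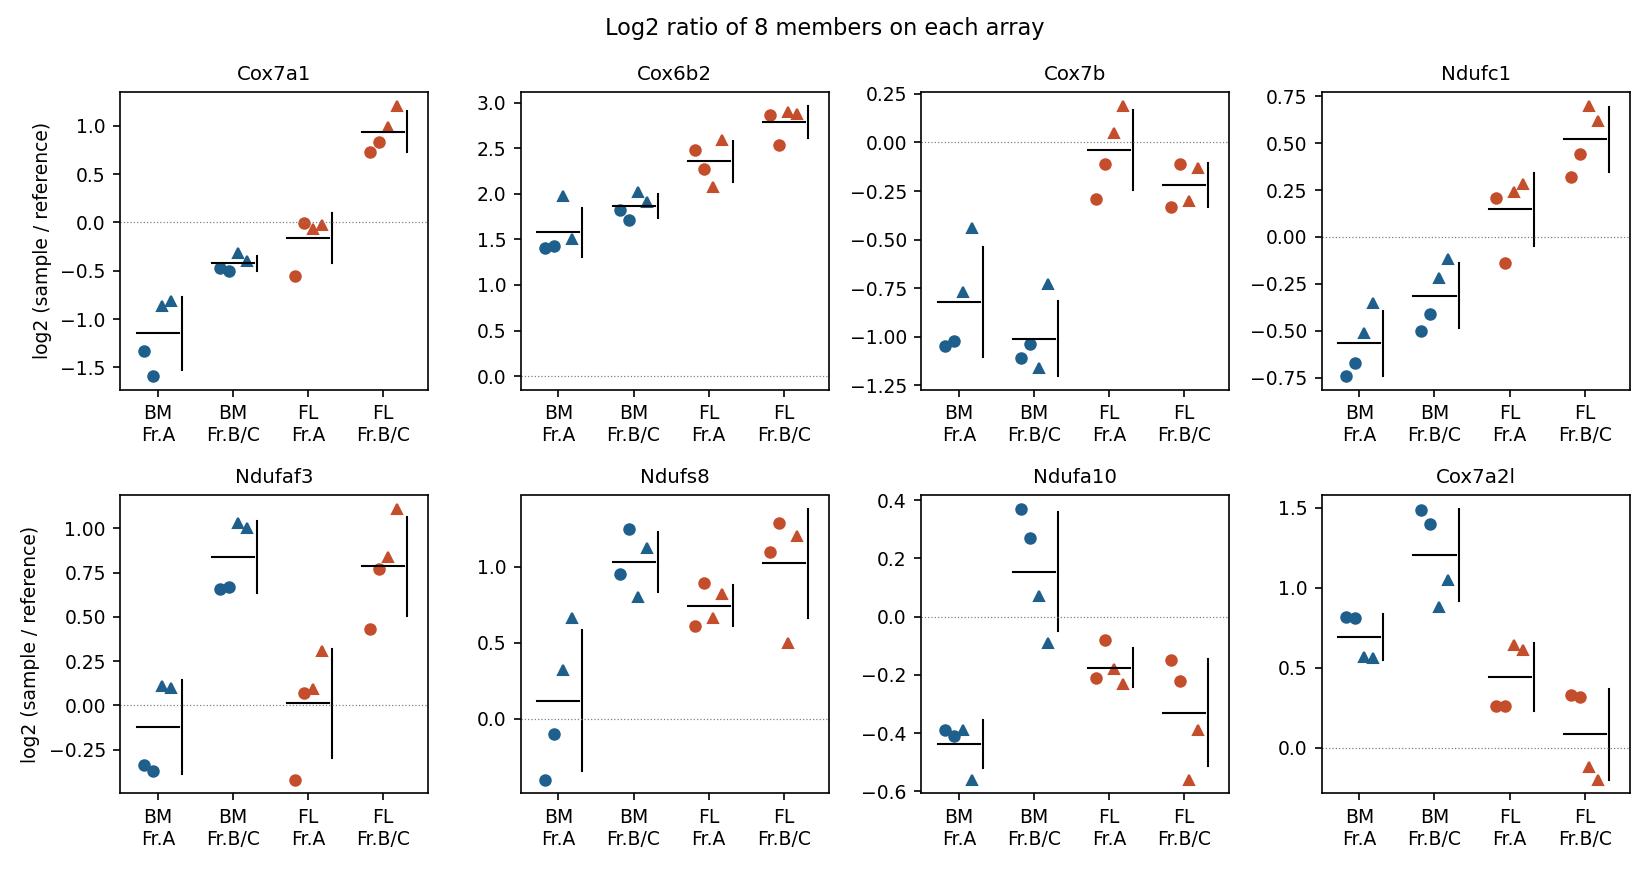
Log2 ratio of sample over reference (vertical axes, a scale of its own in each panel) of 8 members on each array, by group (horizontal axes). Circles are arrays 1 and 2, triangles arrays 3 and 4, horizontal lines means and vertical bars 1 SD. In fetal liver Fr.B/C, Cox7a1 lies between 0.73 and 1.21, above all other groups, and Cox7a2l lies between -0.20 and 0.33, below all bone marrow arrays.

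Cox7a2l went the other way. In Fr.B/C it had log2 ratios of 1.49, 1.40, 0.88 and 1.05 in bone marrow and 0.33, 0.32, -0.12 and -0.20 in fetal liver, with no overlap. It was lower in fetal liver, with a difference of -1.12 ± 0.16 (adjusted p = 9.3e-05, limma). In Fr.A it had 0.82, 0.81, 0.57 and 0.56 in bone marrow and 0.26, 0.26, 0.64 and 0.61 in fetal liver, where the groups overlapped (-0.25 ± 0.16, adjusted p = 0.289). Cox4i1 (-0.18 and -0.08) and Cox8a (-0.04 and -0.12) did not pass, and both were saturated on 10 or more arrays. Cox5a and Cox6a1 were saturated on all 4 fetal liver Fr.B/C arrays, and their differences there (0.11 and 0.17) did not pass.

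In complex V, the ATP synthase, calls between the tissues fell mostly on small membrane subunits and not on the catalytic head. All 5 small membrane subunits (Atp5j2, Atp5k, Atp5l, Atp5md and Atp5mpl), parts of the membrane sector, several of which are known to help the enzyme form dimers, were higher in fetal liver Fr.A and 4 were higher in Fr.B/C, with medians of 0.68 and 0.61. Of the 5 head and central stalk subunits (Atp5a1, Atp5b, Atp5c1, Atp5d and Atp5e), 0 passed in either fraction (medians 0.17 and -0.06, 0 at an unadjusted p under 0.05 by limma, and 0 in the deposited ratios). Of these 5, 3 were saturated on some arrays. Of 18 members with several probes that passed the filter, 3 had a probe of the opposite sign to the brightest one in Fr.A (Ndufaf7, Ndufv3 and Uqcrh) and 3 in Fr.B/C (Atp5b, Ndufv3 and Uqcrc1). Ndufv3, an accessory subunit of complex I called higher in Fr.A at 0.62 (adjusted p = 0.04, limma), had its other probes at -0.13 and 0.18, and at -0.55 and -0.40 in Fr.B/C against 0.57. The other probes of Atp5b differed from the brightest one, with differences of 0.32 and 0.98 in Fr.A against 0.00, and of -0.65 and 0.48 in Fr.B/C against -0.21.

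Atp5k, subunit e of the membrane part, had log2 ratios of -0.70, -1.02, -0.03 and -0.10 in bone marrow Fr.A and 0.16, 0.39, 0.66 and 0.72 in fetal liver Fr.A. In Fr.B/C it had -0.03, -0.10, 0.05 and 0.17 in bone marrow and 0.88, 0.68, 1.03 and 1.23 in fetal liver. Neither fraction showed overlap, and the differences were 0.95 ± 0.20 (adjusted p = 0.0019) and 0.93 ± 0.20 (adjusted p = 0.0024). Atp5mpl differed by 0.68 ± 0.11 in Fr.A (adjusted p = 0.000329), with bone marrow at -0.66, -0.77, -0.70 and -0.86 and fetal liver at -0.02, -0.23, 0.12 and -0.12. On the 4 fetal liver arrays of Fr.B/C it was saturated, and it was at least 1.46-fold brighter than in bone marrow (adjusted p = 0.00105 in the fit). Subunit g, Atp5l, was higher by 0.70 in Fr.A and by 0.50, short of the threshold, in Fr.B/C (adjusted p = 0.0738).

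The 3 c-ring genes encode the same mature protein of the rotor ring. Atp5g1 was higher in Fr.A (0.62 ± 0.16, adjusted p = 0.00842) and at 0.39 in Fr.B/C (adjusted p = 0.0828). Atp5g2 differed by 0.34 and 0.37 and did not pass. Atp5g3 was saturated on 13 of 16 arrays and had differences of -0.06 and -0.15. Near-identical stretches of these genes could share signal between probes, which was not tested. Of the 4 peripheral stalk subunits, which hold the head in place, Atp5j passed in Fr.A (0.40) and 0 passed in Fr.B/C (0 at an unadjusted p under 0.05, limma).

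From Fr.A to Fr.B/C, fewer members passed, and all that did were higher in Fr.B/C; the change had a positive sign in 62 of 80 members in bone marrow and 58 in fetal liver. In bone marrow 15 of 80 members passed as higher in Fr.B/C and 0 as lower, where 13.4% of all genes were higher and 18.8% lower; the median was 0.20 against -0.04 over all genes. In fetal liver 8 were higher and 0 lower, where 9.96% of all genes were higher and 12.7% lower, with a median of 0.16 against 0.00. At an unadjusted p under 0.05 (limma), 25 and 17 were higher and 0 and 1 lower. The deposited ratios gave 11 and 5 higher, where 13.1% and 9.67% of all genes were. The fetal liver count is near the share of all genes. Arrays did not overlap for 11 higher members in bone marrow (12.4% of all genes, and 17.1% lower) and 11 in fetal liver (10.6%, and 13.4% lower). The fractions of a sort share their animals, but which arrays share a sort was assumed from their numbers. With these numbers as a block 36 were higher and 1 lower in bone marrow (18.1% and 23.4% of all genes). In fetal liver 25 were higher and 2 lower (14.5% and 17.7%). With array sets averaged, 4 members passed in bone marrow (Ndufa9, Ndufa10, Ndufs8 and Ndufaf3; 5.45% of all genes higher and 9.46% lower) and 1 in fetal liver (Cox7a1; 3.19% and 4.83%).

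These counts moved with single arrays. In bone marrow the 15 became 8 without bone marrow Fr.A replicate 1 or 2 and 9 without bone marrow Fr.B/C replicate 3 or 4. In fetal liver the 8 became 4 without fetal liver Fr.A replicate 1 or 3 or Fr.B/C replicate 3, 3 without Fr.B/C replicate 4, and 13 without bone marrow Fr.A replicate 2. For the marker lists below, 13.4% of all genes were higher and 18.8% lower in bone marrow Fr.B/C. The fetal liver shares were 9.96% and 12.7%. Proliferation genes rose along the same steps, in 12 of 13 cases in bone marrow and 7 of 13 for fetal liver. Of the erythroid markers 1 of 17 was higher in bone marrow and 1 lower in fetal liver. Some markers of other cells were lower in Fr.B/C. Natural killer cell genes were so in 6 of 7 cases in bone marrow and 3 in fetal liver. Myeloid genes were so in 2 of 13 cases in bone marrow (15.4%, below the share of all genes) and 6 in fetal liver. T-lineage genes were so in 3 of 8 cases in either tissue (1 was higher in fetal liver). Hepatocyte markers were so in 3 and 2 of 5 cases (medians -1.25 and -0.02). The summed sample intensities given above were also lower in Fr.B/C in these 4 lists, in myeloid genes of fetal liver from 54500 to 75000 in Fr.A to 9630 to 21200 in Fr.B/C. The part of all these genes in the members' steps was not tested.

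**Figure D4:**
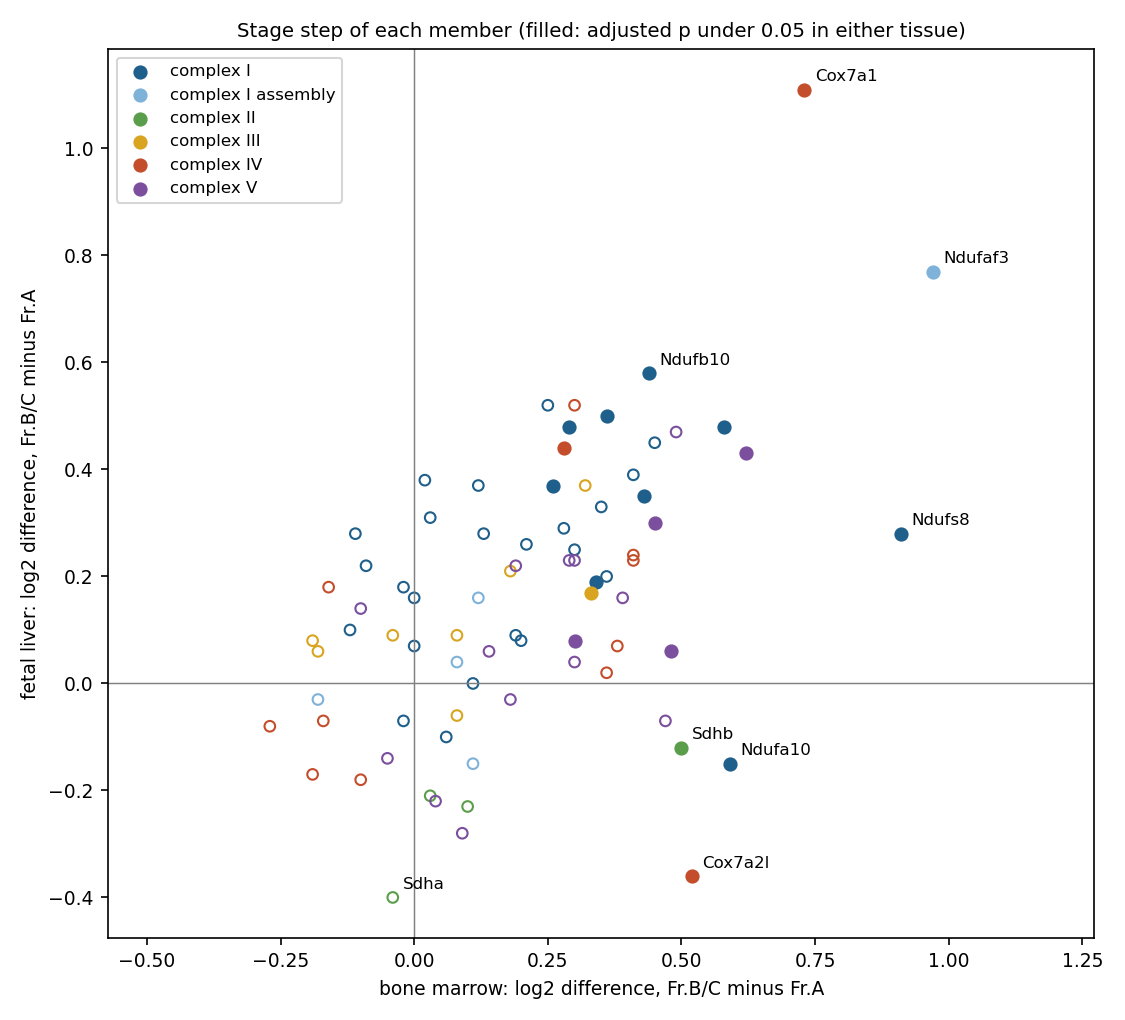
Change from Fr.A to Fr.B/C (log2) of the same 79 members, in bone marrow (horizontal axis) and in fetal liver (vertical axis), coloured by complex. Filled points passed at an adjusted p under 0.05 in either tissue. Cox7a1 and Ndufaf3 lie high on both axes, and Ndufa10, Cox7a2l and Sdhb rose in bone marrow alone by this threshold.

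The members that passed in both tissues were Ndufa9, Ndufb10, Ndufaf3 and Cox7a1. Ndufaf3, an early assembly factor of complex I, had log2 ratios of -0.34, -0.37, 0.11 and 0.10 in bone marrow Fr.A and 0.66, 0.67, 1.03 and 1.00 in bone marrow Fr.B/C. In fetal liver it had -0.42, 0.07, 0.09 and 0.31 in Fr.A and 0.43, 0.77, 0.84 and 1.11 in Fr.B/C. The fractions did not overlap in either tissue. It rose by 0.97 ± 0.17 in bone marrow (adjusted p = 0.00033, limma) and 0.77 ± 0.17 in fetal liver (adjusted p = 0.00302), while the tissues differed by 0.14 and -0.05. Cox7a1, whose values stand above, rose by 0.73 ± 0.17 (adjusted p = 0.00329) and 1.11 ± 0.17 (2.15-fold, adjusted p = 0.000147), again with no overlap. The accessory subunit Ndufb10 rose by 0.44 and 0.58, and its fetal liver call was lost without fetal liver Fr.A replicate 1 (0.50). Ndufa9 and Cox7a1 passed as higher in all 4 comparisons of 2 groups. For Ndufa9 the differences were 0.40 and 0.31 between the tissues, and its steps were 0.43 in bone marrow and 0.35 in fetal liver. From the deposited ratios its tissue difference in Fr.B/C and its fetal liver step were not called.

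In bone marrow, complex I contributed 6 of the 15 higher members, 18.2% of its 33 subunits against 18.8% of all members. Ndufs8 had 0.95, 1.25, 0.80 and 1.12 in Fr.B/C, above its Fr.A values given earlier, and rose by 0.91 ± 0.17 (adjusted p = 0.000661). In fetal liver it had 1.1, 1.29, 0.50 and 1.20 in Fr.B/C and overlapped with Fr.A (0.28, adjusted p = 0.296). The only complex III member to pass in the bone marrow step was the core protein Uqcrc1 (0.33, adjusted p = 0.0375, limma). In complex II, Sdhb was at -0.17, -0.10, -0.17 and -0.07 in bone marrow Fr.A and at 0.24, 0.35, 0.20 and 0.68 in Fr.B/C, with no overlap, and rose by 0.50 ± 0.14 (adjusted p = 0.0112). Of the peripheral stalk of complex V, 3 of 4 subunits rose in bone marrow (median 0.46), namely Atp5h (0.48), Atp5o (0.45) and Atp5j (0.30). Atp5l rose by 0.62 ± 0.20 (adjusted p = 0.0262) in bone marrow, a call that was lost without bone marrow Fr.A replicate 1 (0.60), 2 (0.52) or 4 (0.63) or Fr.B/C replicate 1 (0.57), 2 (0.60) or 3 (0.61).

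In fetal liver, 5 of the 8 higher members were accessory subunits of complex I. Cox6b2 rose by 0.44 (adjusted p = 0.0322), a call that was lost without fetal liver Fr.A replicate 2 (0.42) or 3 (0.32) or Fr.B/C replicate 1 (0.43), 3 (0.41) or 4 (0.39). In complexes II, III and V, 0 members passed by limma, and 0, 0 and 2 had an unadjusted p under 0.05, the latter both higher. All 4 complex II subunits had negative signs (median -0.22).

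The step differed between the tissues for 2 members, both with a larger rise in bone marrow, where 4.43% of all genes had a larger step in fetal liver and 2.92% a smaller one. These 2 are 2.5% of the 80 members, no more than the share over all genes. Ndufa10, an accessory subunit of complex I, had log2 ratios of -0.39, -0.41, -0.39 and -0.56 in bone marrow Fr.A and 0.37, 0.27, 0.07 and -0.09 in bone marrow Fr.B/C. In fetal liver it had -0.21, -0.08, -0.18 and -0.23 in Fr.A and -0.15, -0.22, -0.56 and -0.39 in Fr.B/C. Bone marrow Fr.B/C lay above Fr.A with no overlap, while the fetal liver fractions overlapped. The step was 0.59 ± 0.11 in bone marrow (adjusted p = 0.000522) and -0.15 ± 0.11 in fetal liver (adjusted p = 0.367), and the difference of the steps was -0.75 ± 0.15 (adjusted p = 0.00714, limma).

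For Cox7a2l the step was 0.52 ± 0.16 in bone marrow (adjusted p = 0.0226) and -0.36 ± 0.16 in fetal liver (adjusted p = 0.135), and the difference of the steps was -0.88 ± 0.23 (adjusted p = 0.0299). The fetal liver step came from arrays 3 and 4, since arrays 1 and 2 had 0.26 and 0.26 in Fr.A and 0.33 and 0.32 in Fr.B/C. The bone marrow call was lost without bone marrow Fr.A replicate 3 (0.47) or 4 (0.47) or Fr.B/C replicate 1 (0.41) or 2 (0.44). Its difference of the steps lost its call when any 1 of 8 arrays was left out, replicates 3 and 4 of bone marrow Fr.A (-0.83 each), 1 and 2 of bone marrow Fr.B/C (-0.77 and -0.80), 3 and 4 of fetal liver Fr.A (-0.81 each), and 3 and 4 of fetal liver Fr.B/C (-0.80 and -0.77), which left 1 member called. With array sets averaged 0 members differed in their step, and 2 had an unadjusted p under 0.05 (limma). In that setting 0.122% of all genes had a larger and 0.0870% a smaller step in fetal liver. With array numbers assumed to be sorts and used as a block, 6 members differed. Of these, 1 had a larger and 5 a smaller step in fetal liver (9.06% and 7.26% of all genes). Ndufs8 (-0.63 ± 0.24, adjusted p = 0.141) and Sdhb (-0.61 ± 0.19, adjusted p = 0.0716) did not pass. By sign, 15 of 17 complex V members and all 4 of complex II had the smaller step in fetal liver, none of them past the test (0 and 1 at an unadjusted p under 0.05).

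Other genes of the pathway came from lists of related functions. Of 17 assembly factors of other kinds, 5 (29.4%) were higher in fetal liver Fr.A, where 12.2% of all genes were, and 4 (23.5%) were higher and 1 lower in Fr.B/C, where 13.8% of all genes were higher. Among them Tmem126a, a complex I assembly factor, was higher by 0.47 and 0.77 and Cox19, which serves copper delivery to complex IV, by 0.45 and 0.52. Of 18 genes of the citric acid cycle and pyruvate dehydrogenase, 6 (33.3%) were higher in fetal liver Fr.A and 2 (11.1%) at the Fr.B/C stage, the latter below the share of all genes. Those 2 were Pdha1, the catalytic subunit of pyruvate dehydrogenase (0.72 and 0.66), and Dlat, its acyltransferase (0.53 and 0.42). From Fr.A to Fr.B/C, Pdha1 fell by 0.50 in bone marrow and by 0.56 in fetal liver, and Dlat rose by 0.39 and 0.28.

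Of 10 electron carriers and transporters 1 was higher and 1 lower in Fr.A and 2 were higher and 2 lower in Fr.B/C, near the shares of all genes. Ucp2, a carrier of the uncoupling protein family, was lower in fetal liver, with differences of -0.64 and -1.05, and it rose from Fr.A to Fr.B/C by 1.52 ± 0.12 in bone marrow (adjusted p = 9.29e-08) and 1.1 ± 0.12 in fetal liver (adjusted p = 4.15e-06). Atpif1, the inhibitor protein of the ATP synthase, was higher by 0.68 and 0.72. Cyc1, cytochrome c1 of complex III, rose by 0.82 from Fr.A to Fr.B/C in bone marrow (adjusted p = 0.00246). Of 12 genes that copy or express the mitochondrial genome 3 (25.0%) were higher in fetal liver Fr.A and 2 (16.7%) at the Fr.B/C stage, the latter near the share of all genes, and Polg, the DNA polymerase, rose along the stage step by 0.59 and 0.54 while its accessory subunit Polg2 fell by 0.42 and 0.45.

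Of 8 nuclear regulators, 3 (37.5%) passed as lower in fetal liver at the Fr.A stage, where 17.2% of all genes did, and 1 (12.5%) at the Fr.B/C stage, near the 14.7% of all genes. Along the stage step, Ppargc1a, a coactivator of mitochondrial genes, rose by 1.85 ± 0.19 for bone marrow (adjusted p = 2.42e-06, limma) and 2.69 ± 0.19 for fetal liver (adjusted p = 5.82e-08), and did not pass between the tissues (-0.51 and 0.32). Gabpb1, a subunit of the ETS factor GABP, rose by 0.76 and 0.51. Ppargc1b, a related coactivator, was lower in fetal liver Fr.A (-0.91) and fell by 0.83 from Fr.A to Fr.B/C in bone marrow.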

How the data were processed

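RNA of 16 sorted samples was measured on dual-colour Agilent arrays, with the sample in Cy5 on arrays 1 and 3 of a group and in Cy3 on arrays 2 and 4, per the labels. Per the file headers, Feature Extraction 8.5.1.1 made the scanner files, whose mean and background signals are intensity. The deposited files also give processed signals, an intensity after background subtraction and dye normalization, and a log10 ratio, red over green, per the file headers. A further table of log2 ratios for the whole series was deposited by the authors, with array medians near 0, and it correlated with the ratios used here at r = 0.930 to 0.951. Its method was not given in the sources used here. Limma is named in the submitters' processing notes, without a version.

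For this work limma 3.58.1 (R 4.3.3) applied normexp background correction, with an offset of 50 that compresses differences of dim genes, and loess within arrays. All ratios run as sample over reference. Loess gave control spots a weight of 0, and outlier spots were left out. A gene's brightest probe over all arrays was chosen first. It was tested if it was well above background on at least 3 of 4 arrays of any group and usable on at least 12, which left 22978 genes or transcripts. One limma fit over the 16 arrays had 4 group means plus a term for dye, with empirical Bayes and Benjamini-Hochberg adjustment over all genes, and a gene was called at an adjusted p under 0.05. The fit was tested on simulated data, with known changes in fetal liver Fr.A and independent noise on each array. It called 50% of changes of 0.5 and 92% of changes of 1 (log2), so small changes can go uncalled. The likeness of arrays within a set was not simulated, so error rates under it were not tested. Errors are standard errors (SE). Where spots were missing (Ndufa8 and Ndufs3 on fetal liver Fr.B/C array 3), the fit used the other arrays. The number of arrays limits the precision.

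The labels say that each sort gave both fractions. Arrays of the same tissue and number deviated together across fractions (r = 0.25 to 0.52 over genes in all 8 pairs). Pairs of the same tissue but other numbers had r = -0.46 to 0.42, which overlaps. Arrays of the same number also share an array set, so these values cannot show that numbers pair the fractions of a sort. The block by sort assumes that they do. Members, lists and tests were chosen with earlier results of these data known. The text names, for each comparison, the 5 highest and 5 lowest members, members whose step differed, isoform groups, Sdha to Sdhd, members not kept, and up to 3 genes of each pathway list; other members were named after their values were seen. One member that the rule names, and 1 marker gene, are not reported here singly; both are in the counts, medians and list means.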

Additional observations from a re-analysis of the deposited data

Results flagged for a closer look

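In groups of 4 arrays, 1 array stood far from the other 3 in 6 of the 168 cases examined, where chance gives about 1 in 20. Cox6b2 was at 1.98 on bone marrow Fr.A array 3, against 1.41 to 1.5 on the others, and at 2.53 on fetal liver Fr.B/C array 2, against 2.86 to 2.90. Cox7a1 was at -0.55 on fetal liver Fr.A array 1, against -0.07 to -0.01. Ndufa10 was at -0.56 on bone marrow Fr.A array 4, against -0.41 to -0.39. The complex III core protein Uqcrc2 was at 0.13 on fetal liver Fr.A array 2, against -0.50 to -0.41, and the Rieske protein Uqcrfs1 was at -0.79 on fetal liver Fr.B/C array 3, against -0.42 to -0.37.

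The change from Fr.A to Fr.B/C differed between the tissues by the test of the difference itself (limma) for Ndufa10, at -0.75 (SE 0.15, adjusted p = 0.00714), and for Cox7a2l, at -0.88 (SE 0.23, adjusted p = 0.0299), fetal liver minus bone marrow. That is 2.5% of the members tested, while 4.43% of all genes had a larger and 2.92% a smaller step in fetal liver.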

How the results depend on the processing

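Counts below are of members called in this order: the tissue difference of Fr.A (31) and of Fr.B/C (32), the stage step of bone marrow (15) and of fetal liver (8), and the difference of steps (2). Counts moved more than medians, and a count not given for a setting was within 1.5 times the main one. From the scanner's processed signals Fr.A gave 20, the steps 9 and 3 and their difference 1; the deposited table gave 5 for the fetal liver step and 1 for the difference; and all 5 counts were 10, 15, 4, 1 and 0 with median centring in place of loess, where the medians of all members were 0.50 in Fr.A, 0.35 in the bone marrow step and 0.33 in the fetal liver step. Scaling between arrays gave 5 for the fetal liver step. The array set as a random block (correlation 0.57) gave 12, 15, 6, 2 and 0, averaged sets 5, 6, 4, 1 and 0, Cy5 arrays alone 7, 9, 1, 1 and 0, and Cy3 arrays alone 5, 3, 2, 1 and 0. Beside these counts of 0 for the difference of steps, 2 to 5 members had an unadjusted p under 0.05 by limma. With the set as a random block, 17.7%, 16.2%, 20.7%, 13.3% and 2.2% of all genes were called. In the steps of that setting, 8.14% and 5.48% of all genes were higher, and all members called were higher. With averaged sets, 11%, 8.66%, 14.9%, 8.02% and 0.209% of all genes were called. Arrays 1 and 2 alone gave 24 and 13 for the steps, and arrays 3 and 4 alone 30, 35 and 15 for the steps and their difference. Scan session as a random block (correlation 0.31) gave 17 for the fetal liver step and 4 for the difference. Settings added after seeing the data gave, for Fr.A, the steps and their difference, 20, 7, 4 and 0 for averaged sets with a set term (6 for the last at an unadjusted p under 0.05) and 47, 32, 22 and 6 for the set as a fixed term. Of all genes, scan session as a random block called 29.9% in the fetal liver step and 13.5% in the difference of steps. In the deposited table these shares were 22.7% and 6.12%. Averaged sets with a set term called 17.9%, 21.1%, 13.1% and 1.08%. Shares of all genes in the other settings of this paragraph are not given here. The causes were not tested.

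A replicate block over both tissues gave 44 and 45 between the tissues, where numbers do not pair the samples (r = -0.27 to 0.48). For the steps and their difference it gave 31, 19 and 5. Of all genes, 34.6%, 34.6%, 37.3%, 27.7% and 11.9% were called in that setting. The block within tissue gave 37, 27 and 6, against 41.5%, 32.2% and 16.3% of all genes. Leaving out 1 array gave 16 to 34, 19 to 36, 8 to 21, 3 to 13 and 1 to 3 members, and medians of 0.27 to 0.45, 0.28 to 0.40, 0.15 to 0.30, 0.07 to 0.20 and -0.12 to 0.06. The difference of steps fell to 1 without replicate 3 or 4 of bone marrow Fr.A, fetal liver Fr.A or fetal liver Fr.B/C, or without replicate 1 or 2 of bone marrow Fr.B/C. Changes of sign in values small for their spread and called in neither fit are left out here. The others, on arrays 1 and 2 alone, were in the median of complex II in Fr.A (-0.06), Sdhb in Fr.B/C (0.05) and the fetal liver step of Cox7a2l (0.07). On arrays 3 and 4 alone the bone marrow step of Sdha reversed (0.26). Of the values of single named members under other settings, 3529 were counted as unchanged, 134 lost their call, 99 gained a call and 3 reversed. Unchanged values include a change of sign where neither fit called the member and the main value was at most 2 SE. Cox7a1, Cox6b2 and Cox7a2l in Fr.B/C, Ndufaf3 in the bone marrow step and Cox7a1 in the fetal liver step were called in every setting run. With saturated spots left out, 68 members were tested and 28, 30, 12, 8 and 2 were called. Of all genes, 29.5%, 28.7%, 32.3%, 22.8% and 7.46% were called there.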
